A study of Hipposideros armiger with 2 samples.

Results

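Genes of cholesterol synthesis and of the sterol balance inside cells were followed in 2 RNA sequencing libraries of Hipposideros armiger, the great Himalayan leaf-nosed bat. The members were 30 genes chosen by name: the enzymes from acetyl-CoA condensation to cholesterol, the sterol sensors, and genes for sterol transport, uptake control and esterification. The list does not hold every enzyme of the pathway. A member was found where the protein name given to an assembled gene equalled its symbol, and values were summed over all assembled genes of that name. Of the 30 members, 29 were found, in 67 of 55378 assembled genes; the name SC5D, the sterol desaturase, matched none.

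Both libraries are labelled as liver of wild-type bats with heavy metals exposure, from the CW cave (Chunwan) of a study of 2 caves in Guangdong. They form 1 group, replicates 1 and 2. Replicate 2 is labelled as an adult male, and the design text describes 5 adult males killed per cave, so the libraries are treated as 2 animals. The study concerned liver function under heavy metal enrichment. The second cave was not analysed here, and no value below bears on metal exposure. With 1 library against 1 library no p-value was computed, and every difference described is between these libraries.

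Cells make cholesterol from acetyl-CoA through mevalonate, isoprenoid diphosphates, squalene and lanosterol. SCAP carries the transcription factor SREBP2, encoded by SREBF2, out of the endoplasmic reticulum when sterols are low, and INSIG proteins hold that complex back when sterols are high. The oxysterol receptors LXR-alpha (NR1H3) and LXR-beta (NR1H2) respond to sterol excess. Liver is a main site of synthesis and also exports sterol in lipoproteins and bile.

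The liver label was checked against defining markers. All 12 hepatocyte markers listed were over 2-fold lower in replicate 2, against 5.16% of all gene names tested. Their sums were 14057 and 399 TPM in replicates 1 and 2 (TPM is the deposited abundance, scaled for transcript length and library size). The 12 lung epithelium markers summed to 12444 and 19804 TPM, with 1 of them at or under the floor of 3 counts in replicate 1 and 0 in replicate 2. Single genes carried much of these sums, so they do not measure shares of tissue. ALB, a hepatocyte marker, was at 7990 and 176 TPM, and SCGB3A1, a lung marker, at 8069 and 12898 TPM. In replicate 2 the lung sum exceeded the hepatocyte sum, and in replicate 1 the sums were close. These values go against the label of liver alone, most of all in replicate 2, so the levels below are those of the libraries labelled liver and not of liver tissue as such. The 8 macrophage markers summed to 306 and 391 TPM. Depth was alike, at 18741292 and 18778400 expected counts.

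Members were present at low to moderate levels, and NPC2 led them. Their TPM summed to 593 in replicate 1 and 767 in replicate 2, or 680 ± 123 (mean ± SD, n = 2). They held 0.0911% of all counts in the first library, with a Wilson 95% interval from 0.0897% to 0.0924%. In the second library they held 0.109%, with limits of 0.107% and 0.110%. These intervals cover counting error only. The shares are of counts set against library size alone. By that measure the median of all names was also higher in replicate 2, at a log2 ratio to replicate 1 of 0.24. Of 29 members, 16 reached 10 TPM in both libraries, against 41.6% of all 12783 names. The median member stood at 12.2 and 16.7 TPM.

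TPM were higher in replicate 2 for 26 of the 29 members, with a median ratio of 1.34. That is the behaviour of most genes here: 78.2% of all names tested had a higher TPM in replicate 2, with a median ratio of 1.30. Differences are therefore given below as log2 ratios of replicate 2 over replicate 1, from library-scaled counts (CPM, with TMM factors) with 1 CPM added, less the median ratio of all names. A name was tested where its mean was at least 1 CPM, and 27 of the members passed. The added 1 CPM understates the ratios of low genes.

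**Figure D1:**
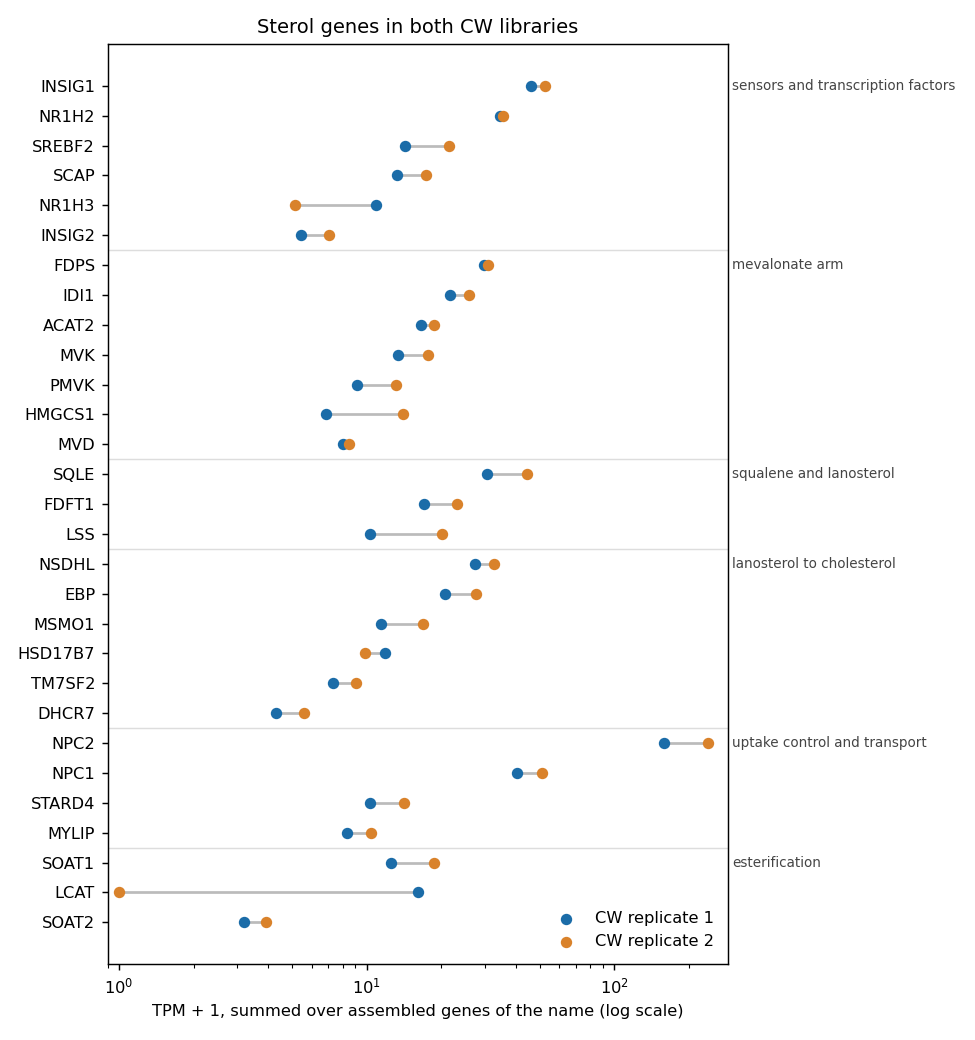
TPM + 1 (log axis) of the 29 members found, in CW replicates 1 and 2, grouped by role; a grey line joins the libraries. Most members lie higher in replicate 2, whereas NR1H3 (9.97 and 4.16 TPM), LCAT (15.2 and 0 TPM) and HSD17B7 (10.9 and 8.90 TPM) lie lower.

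The sensors and transcription factors held the only tested member that was over 2-fold apart. NR1H3, which encodes LXR-alpha and is known from liver, fat and macrophages, was at 9.97 and 4.16 TPM in replicates 1 and 2, from 328 and 127 counts in 1 assembled gene. It was 2.80-fold lower in replicate 2, a log2 ratio of -1.49; from counts alone, without the added 1 CPM, the 95% counting interval of the log2 ratio was -1.94 to -1.33. Among all names tested, 5.16% were over 2-fold lower in replicate 2, so 1 of 27 members is near the background. NR1H3 stood at rank 19 of 29 members in replicate 1 and rank 27 in replicate 2.

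Its paralog NR1H2, the widely expressed LXR-beta, was at 33.6 and 34.5 TPM, with 854 and 1035 counts. Its log2 ratio was 0.02. The TPM of NR1H2 was thus 3.37 times that of NR1H3 in replicate 1 and 8.28 times in replicate 2. Counting only the highest assembled gene of each name, these ratios were 2.27 and 7.83.

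NR1H3 was low in the library in which hepatocyte markers were low. Macrophage markers gave a mixed picture beside it. Of 8 macrophage markers 1 was over 2-fold lower, against 5.16% of all names tested. It was MARCO, a scavenger receptor, at 366 and 22 counts. The list's median log2 ratio was -0.09, and 0 of the 8 were at or under the floor of 3 counts in either library. Whether either cell type had a part in the NR1H3 difference was not tested. In bulk tissue, fewer cells of a type and less RNA per cell cannot be told apart.

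SREBF2 was at 13.3 and 20.5 TPM (615 and 826 counts), with a log2 ratio of 0.16; its highest assembled gene alone was at 8.74 and 11.4 TPM. SCAP, its escort, was at 12.2 and 16.4 TPM, with a log2 ratio of -0.03. INSIG1, the retention factor whose own gene is a target of SREBP, was the second highest member in both libraries, at 45.4 and 51.7 TPM from 1905 and 1982 counts. Its log2 ratio was -0.20, with a counting interval of -0.30 to -0.11. That interval lies below 0 but far inside 2-fold. INSIG2, the related protein, was at 4.42 and 6.07 TPM, with a log2 ratio of 0.02. INSIG1 thus stood at 10.3 times the TPM of INSIG2 in replicate 1 and 8.51 times in replicate 2. By the highest assembled gene alone, these ratios were 8.60 and 7.14.

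The mevalonate arm summed to 98.6 and 122 TPM, and 0 of its 7 members were over 2-fold apart. Over all names tested, 5.16% were over 2-fold lower and 0.0266% higher in replicate 2, so a count of 0 is near these shares. Its highest member was FDPS, which makes farnesyl diphosphate, at 28.8 and 30.04 TPM (660 and 746 counts, log2 ratio -0.08). IDI1, the isomerase that prepares the reactive isoprene unit, was at 20.8 and 24.9 TPM, with a log2 ratio of -0.08. Both lay inside the spread of most genes, whose middle 50% of log2 ratios ran from -0.17 to 0.13.

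ACAT2, the cytosolic thiolase at the entry of the pathway, had the second lowest log2 ratio of the tested members. It was at 15.6 and 17.8 TPM from 905 and 826 counts, a log2 ratio of -0.38 with a counting interval of -0.53 to -0.26. Its raw TPM were slightly higher in replicate 2, as were those of most genes. The kinases MVK (12.3 and 16.7 TPM) and PMVK (8.19 and 12.1 TPM), which phosphorylate mevalonate in turn, had log2 ratios of 0.01 and 0.11. MVD, the decarboxylase that follows them, was at 7.06 and 7.53 TPM, with a log2 ratio of -0.07.

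HMGCS1, the cytosolic HMG-CoA synthase, looked different by TPM and by counts. Summed TPM were 5.85 and 13.1, a ratio of 2.23, yet counts were 147 and 179 and the log2 ratio was 0.02. Its longest assembled gene was at 4.11 and 6.68 TPM; the remainder came from 2 short assembled genes, of lengths 317 and 225, with at most 8 counts each. By summed TPM it ranked 26 of 29 members in replicate 1 and 19 in replicate 2.

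Squalene and lanosterol formation was measured through 3 members. FDFT1, the squalene synthase that commits farnesyl units to sterols, was at 16.03 and 22.1 TPM (881 and 1063 counts), with a log2 ratio of 0.01. SQLE, the squalene epoxidase and a control point of the pathway, was at 29.5 and 43.6 TPM (411 and 545 counts), with a log2 ratio of 0.14; its highest assembled gene alone was at 15.7 and 22.9 TPM. LSS, the cyclase that closes the sterol ring system, was at 9.36 and 19.1 TPM (250 and 341 counts), with a log2 ratio of 0.18. The last is the clearest case of short fragments in the TPM: its highest assembled gene, at 3.53 and 5.45 TPM, held 94.2% of LSS counts but 31.5% of its TPM.

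From lanosterol to cholesterol, 6 of 7 members were found and 0 were over 2-fold apart. That too is near the 5.16% lower and 0.0266% higher among all names tested. NSDHL, which removes carbon at the C4 position, was at 26.4 and 31.8 TPM (545 and 579 counts), with a log2 ratio of -0.17. EBP, the sterol isomerase, was at 19.8 and 26.7 TPM (368 and 475 counts), with a log2 ratio of 0.10. MSMO1, the methylsterol oxidase, was at 10.5 and 15.9 TPM, with a log2 ratio of 0.17.

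The remaining enzymes of that arm found were TM7SF2, DHCR7 and HSD17B7. TM7SF2, a sterol reductase, was at 6.32 and 8.11 TPM from 88 and 106 counts, and its log2 ratio of 0.01 had a wide counting interval, -0.41 to 0.43. DHCR7, which makes cholesterol from 7-dehydrocholesterol, was among the lowest members at 3.29 and 4.59 TPM, with a log2 ratio of 0.06. HSD17B7, a ketosteroid reductase, was at 10.9 and 8.90 TPM. Its higher value in replicate 1 came from an assembled gene of length 211 with 3 counts in replicate 1 and 0 in replicate 2. Without it, HSD17B7 was at 6.87 and 8.90 TPM, and its log2 ratio over all counts was -0.03.

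Transport and uptake control had the highest summed TPM of the roles, at 214 and 310 TPM, and most of it came from NPC2. NPC2, a soluble lysosomal protein that hands cholesterol to the membrane, was at 158 and 238 TPM from 3769 and 5103 counts. It took 26.6% of the members' TPM in replicate 1 and 31.0% in replicate 2. Its log2 ratio was 0.17, with a counting interval of 0.11 to 0.24, well inside 2-fold. Lung epithelium markers had a median log2 ratio of 0.21 in the same libraries, and their part in the NPC2 value was not tested.

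NPC1, the membrane partner that receives this cholesterol, ranked just below INSIG1 in both libraries, at 39.6 and 50.0 TPM (1347 and 1687 counts, log2 ratio 0.06). STARD4, a carrier of sterol between membranes, was at 9.36 and 13.2 TPM, with a log2 ratio of -0.13. MYLIP, a ubiquitin ligase that LXR induces to limit lipoprotein uptake, was at 7.35 and 9.46 TPM, or 3.56 and 4.80 TPM by its highest assembled gene, with a log2 ratio of -0.05. Its counting interval of -0.36 to 0.24 spans 0, and a link between MYLIP and either LXR gene was not tested.

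Of the 3 esterification members, only SOAT1 was tested. SOAT1, which esterifies cholesterol in most cells, was at 11.5 and 17.7 TPM (438 and 601 counts), or 6.05 and 9.40 TPM by its highest assembled gene. Its log2 ratio of 0.19 was the highest of the tested members. SOAT2, the form known from hepatocytes and intestine, had 12 and 14 counts in 1 assembled gene of length 480 and was not tested. Its 2.20 and 2.91 TPM rest on so few counts that a difference was not detectable at this depth: the counting interval of the log2 ratio ran from -1.26 to 1.20. SOAT1 stood at 5.24 and 6.07 times the TPM of SOAT2, or 2.75 and 3.23 times by the highest assembled gene alone.

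LCAT, the plasma enzyme that esterifies cholesterol on lipoproteins and is made mainly by hepatocytes, had 19 counts in replicate 1 and 0 in replicate 2. With the floor of 3 counts per library it was at least 7.59-fold lower in replicate 2; the 95% counting interval, which also covers the error of the 19 counts, allows a difference as small as 5.60-fold. It failed the filter on low values and so stands outside the 27 tested members. Both of its assembled genes were short, at lengths of 260 and 205, so that 19 counts gave 15.2 TPM in replicate 1. It was at 0 counts in the library in which hepatocyte markers were low, and the part of hepatocytes in this was not tested.

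Across the 27 tested members, 1 lay past 2-fold downward in replicate 2 and 0 upward, against 5.16% and 0.0266% of the 11289 names tested. The members' median log2 ratio was 0.01, where that of all names is 0 by construction. Their middle 50% ran from -0.07 to 0.11. Apart from NR1H3, every tested member lay between -0.38 and 0.19. In all, 26 of 27 members lay within 0.5 on the log2 scale, as did 89.1% of all names tested.

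**Figure D2:**
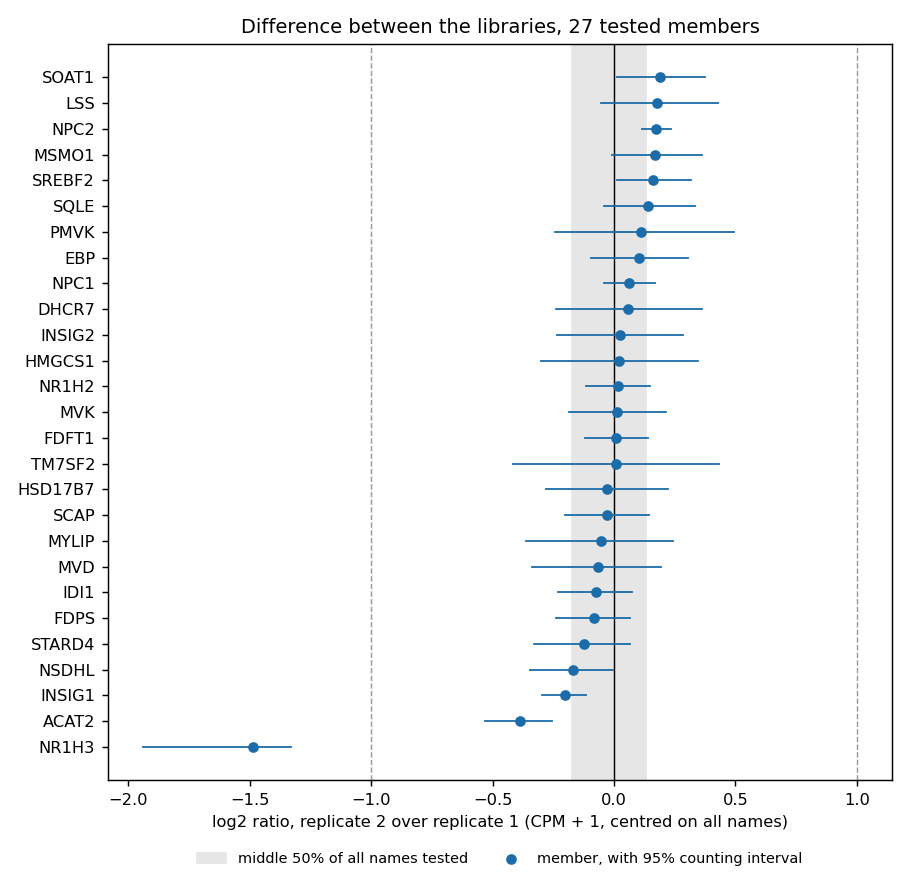
Log2 ratio of replicate 2 over replicate 1 for the 27 tested members, on CPM + 1 and centred on all names; horizontal lines are 95% counting intervals from counts without the added 1 CPM, the grey band is the middle 50% of all names tested (-0.17 to 0.13), and dashed lines mark 2-fold. NR1H3 (-1.49) lies apart; the interval holds 0 for 20 members.

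Most ratios were no larger than counting error. With TMM scaling centred on all names, the 95% counting interval held 0 for 20 of 27 members. It lay above 0 for SREBF2, NPC2 and SOAT1, and below 0 for INSIG1, ACAT2, NSDHL and NR1H3. The nearer ends for NSDHL (-0.003), SREBF2 (0.011) and SOAT1 (0.014) lay close to 0. The share of all names with an interval clear of 0 is not given here, so this count is not a trait of the members. The intervals take the scaling as exact and are not corrected for their number. The spread between animals is unknown, so an interval clear of 0 compares these libraries with counting error under this scaling only. The members kept a similar order in both libraries: on log2(TPM + 1) across the 29 genes, Pearson's r was 0.78, Spearman's rho was 0.87, and r reached 0.95 without LCAT. Genes are not independent replicates.

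Genes around the pathway were read from 5 further lists with 48 names, of which 47 were found and 46 tested. Of these 46, 2 were past 2-fold downward in replicate 2 and 0 upward, with a median log2 ratio of -0.05. Set against the 5.16% and 0.0266% of all names past 2-fold in these directions, that count is near the background. All of the isoprenoid branch (12 of 12), SREBP processing and sterol-dependent degradation (8 of 8), other sterol enzymes and electron donors (5 of 5), and lysosomal release and sterol transfer (13 of 13) lay within 2-fold.

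Within those lists, MBTPS1, the protease that first cuts SREBP, was at 31.9 and 37.4 TPM. CYB5R3 and PGRMC1, which serve electron transfer to sterol enzymes, were at 77.4 and 79.3 TPM and at 62.9 and 68.1 TPM. These genes also lay within 0.2 of the median of all names on the log2 scale.

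Others were RABGGTB and FNTA, subunits of protein prenyl transferases, at 15.1 and 20.3 TPM and at 17.3 and 17.3 TPM. SCARB2, a lysosomal membrane protein, was at 39.9 and 50.1 TPM, and LIPA, the acid lipase that frees cholesterol from its esters, at 36.8 and 23.8 TPM. LIPA had 896 and 868 counts and a log2 ratio of -0.30.

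Of these 5 lists, lipoprotein uptake and oxysterol formation lay lowest, with a median log2 ratio of -0.65 over 8 tested genes. CYP27A1, the mitochondrial sterol 27-hydroxylase of bile acid and oxysterol formation, had 1124 and 364 counts and was 3.56-fold lower in replicate 2. CYP46A1, the 24-hydroxylase best known from brain, had 92 and 30 counts and was 2.58-fold lower. All 12 hepatocyte markers were lower in the same library, with a median log2 ratio of -4.66, and their part in these values was not tested. LRPAP1, a chaperone of lipoprotein receptors, was the highest of the list at 111 and 137 TPM, with a log2 ratio of 0.01. LRP1, a large endocytic receptor, had 3128 and 2182 counts, giving a log2 ratio of -0.78, while its TPM were 82.3 and 85.7.

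**Figure D3:**
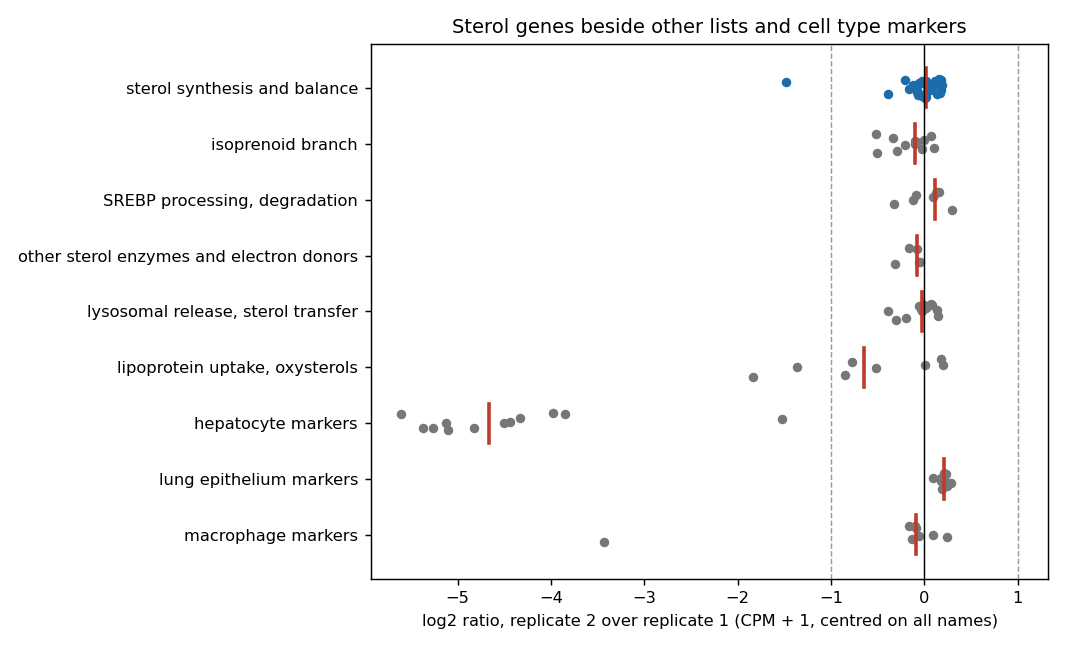
Log2 ratio of replicate 2 over replicate 1 (CPM + 1, centred on all names) for the tested genes of the members and of 8 lists; each point is a gene, red bars are medians and dashed lines mark 2-fold. The members centre on 0.01 and hepatocyte markers on -4.66, with lung epithelium markers at 0.21.

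The authors' tables tag 14 of the 29 members with the KEGG pathways of steroid biosynthesis (8 members) or terpenoid backbone formation (6 members). The other members carry neither tag.

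How the assembly splits a gene bears on the levels above. Of the members found, 12 had 1 assembled gene and 17 had several. For 27 of 29 the highest assembled gene held 90% or more of the counts, but only for 14 did it hold that share of TPM, because a few reads on a short fragment give a high TPM. Of the 38 further assembled genes, 30 were shorter than 500, and the highest count among them was 56.

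Among 47 member assembled genes with at least 7 counts in either library, 4 were at 0 in replicate 2 and 0 were at 0 in replicate 1. Over all named assembled genes with that many counts, 3.32% were at 0 in replicate 2 and 0.344% in replicate 1. The 4 were fragments named LCAT (17 counts in replicate 1), FDPS (10), NPC1 (7) and NR1H2 (7). A fragment at 0 in 1 library enters this set only through its counts in the other. Those named NPC1 and NR1H2 stood at the cut itself, so the count of 4 depends on it and is a description only. For FDPS, NPC1 and NR1H2 the main assembled gene was present in both libraries.

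**Figure D4:**
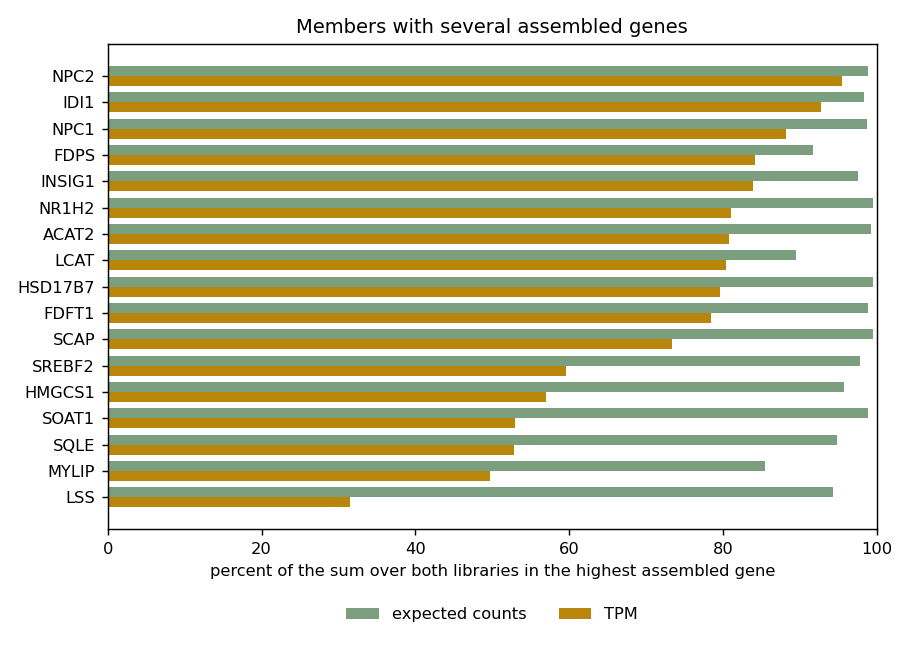
Percent of each member's expected counts and of its TPM, summed over both libraries, that fell in its highest assembled gene, for the 17 members with several; bars start at 0. LSS shows the widest gap, with 94.2% of counts and 31.5% of TPM.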

How the data were processed

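Poly(A)-selected RNA of 2 CW libraries had been sequenced, and 1 table per library was deposited, with the same Trinity-named assembled genes. The authors' expected counts have decimals and carry the word count in the header; they were rounded to whole numbers here. The other deposited column, whose header names no unit, was taken for TPM because its values sum to 996837 and 996239. Cutadapt 1.9 is named per the submitters' processing notes, which also give the mm10 build for replicate 1; the assembler's version and the quantifier are not given in the sources used here. Names are the authors' best protein matches, which do not show the species of a transcript. Of the 30 members, 29 matched a symbol in RefSeq's gene table (assembly ASM189008v1); sequences were not used here.

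TMM factors (edgeR 4.0.16, R 4.3.3) were 0.910 and 1.10, computed over all assembled genes; ratios were taken per name in Python 3.11.15 (scipy 1.17.1). Counting intervals are exact (Clopper-Pearson, 95%). The calculation was tested on simulated counts in which few assembled genes were changed, evenly up and down. In these libraries the differences were mostly downward (5.16% of names over 2-fold lower, 0.0266% higher). The simulation therefore does not show how the scaling behaves here. Alternatives were a pseudocount of 0.1 CPM, other filters, library size scaling, DESeq2 1.42.0 size factors, TPM ratios, the highest assembled gene alone, and leaving out each replicate. The rule for names took all members and, of each other list, the 2 highest by mean TPM and up to 5 in all that differed over 2-fold; of marker lists, sums are given in place of most names. Some genes that this rule takes are not reported here. The members and lists were chosen with earlier results of these data known.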

Additional observations from a re-analysis of the deposited data

How the results depend on the processing

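The count of members over 2-fold lower in replicate 2 was 1, NR1H3, under each scaling, pseudocount and filter tried, by TPM and by the highest assembled gene, except that with no low-value filter it was 2, since LCAT was then tested. The count over 2-fold higher was 0 under all of them. Of all names tested, 4.39% (library size scaling) to 7.10% (TPM ratio) were over 2-fold lower, and 4.76% with no low-value filter. From 0% to 0.576% were over 2-fold higher. The member counts are thus near the background under these settings. The median log2 ratio of the members moved from 0.01 to 0.26 with library size scaling, which puts the median of all names at 0.24. Total TPM of the members moved from 680 to 920 when TPM were rescaled without the 10 highest assembled genes, as a smaller total implies, and was 581 from the highest assembled genes alone. Without each replicate in turn, the total ranged from 593 to 767 TPM and the members at 10 TPM from 18 to 20; by the highest assembled gene, 13 reached 10 TPM in both libraries against 16. A ratio of TPM in place of counts moved 8 of 27 members by more than the distance from the centre of their counting interval to its end. Among these, HMGCS1 was at 0.71, LSS at 0.63 and HSD17B7 at -0.60. By the same measure, library size scaling, without centring on all names, moved 18 members and left 9 the same. INSIG1 went from -0.20 to 0.05 with that scaling, and NSDHL from -0.17 to 0.08. No paired analysis was possible because both libraries belong to 1 group. A search of promoters for a sterol element was planned and not run, since sequences were not used here. Depth limits SOAT2 and LCAT, with at most 19 counts, and the spread between animals is unknown.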
